A study of Mus musculus with 20 samples.

Results

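Whether loss of Pck1 in the liver changes the response to a steatohepatitis diet was examined gene by gene as an interaction. For each gene, the interaction was the knockout minus wild-type difference on the NASH diet less the same difference on chow, on the log2 scale. All 20 of the 20 liver libraries entered it, 5 per group, which the titles number as mice 1 to 5 without saying whether any was pooled. The groups were wild-type mice on chow (WT chow), wild-type mice on the NASH diet (WT NASH), liver-specific Pck1-knockout mice on chow (KO chow) and such mice on the NASH diet (KO NASH). Every mouse was 31 to 33 weeks old and had its diet for 24 weeks. The Cre line behind the conditional knockout, the composition of the diet and the hour of tissue collection are each not given in any source used here, and the deposited column names call the NASH diet HFD. An interaction above 0 means that KO stood higher against WT on the NASH diet than on chow, and equally that the diet difference was more positive in KO than in WT.

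Pck1 encodes cytosolic phosphoenolpyruvate carboxykinase, which turns oxaloacetate into phosphoenolpyruvate and so links the tricarboxylic acid cycle to gluconeogenesis and glycerol synthesis. Nonalcoholic steatohepatitis (NASH) is fatty liver with hepatocyte injury, inflammation and scarring. The liver adjusts cholesterol and fatty acid synthesis mainly through the SREBP transcription factors, times much of its metabolism by the circadian clock, and expresses many steroid and drug enzymes at different levels in females and males under the pattern of growth hormone release.

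Total counts per library ran from 9958935 to 20601955, and 14440 of 46095 gene symbols had enough counts to be tested. Pck1 itself averaged 3570 ± 1140 CPM, that is, counts scaled by library size (mean ± SD, n = 5), in WT chow against 2290 ± 511 in WT NASH, and 626 ± 175 in KO chow against 445 ± 112 in KO NASH. Its interaction was 0.15 (SE 0.389, adjusted p = 0.966). Albumin and the other hepatocyte markers were abundant in every library, with a summed level of 55900 to 134000 CPM for the 7 of 8 markers found by symbol. Sex was not among the labels used. Counts of 4 Y-linked genes split the libraries into males, with 2753 to 5230 counts, and females, with 1 to 12. WT chow held 5 males, WT NASH held 1 male (replicate 4) and 4 females, KO chow held 3 males beside 2 females (replicates 3 and 5). KO NASH held 4 males and 1 female (replicate 2). The female share therefore entered the interaction with a weight of -100 percentage points, that is, as 1 whole male-to-female difference. Values fitted with sex as a term, which takes the difference between the sexes to be the same in every group, are given beside the called genes and beside the lists and genes whose value they move most. Within WT NASH, the male library was also the one with the fewest counts, 9958935.

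At an adjusted p under 0.05, 20 of 14440 genes were called for the interaction (0.139%), 8 above 0 (0.0554%) and 12 below 0 (0.0831%). Each differed by at least 2-fold. The genes below 0 included Fmn1, which encodes an actin-nucleating formin; Hmgcs1 and Acly, enzymes of cholesterol and fatty acid synthesis; Pik3c2g, a class II phosphoinositide 3-kinase; and Cyp2b9, Cyp2a4 and Sult3a2, oxidising and conjugating enzymes known to be higher in female liver. Those above 0 included Aqp4, a water channel; Cidec, a lipid droplet protein; Bhlhe41, a transcriptional repressor of the circadian clock; Adrb3, a beta-adrenergic receptor; Gpc1, a cell-surface heparan sulfate proteoglycan; and Tppp, a tubulin-binding protein. For 17 of the 20 genes the diet difference was larger in WT than in KO (7214 of 14440 over all genes), and for 14 it had opposite signs in the 2 genotypes (4246 of 14440). Choosing genes by the interaction itself favours opposite signs, which were seen for 843 of the 1191 genes at an unadjusted p under 0.05, so nothing is read from these counts. Of the 20 genes, 12 were also called for KO against WT on chow (5.53% of all genes) and 16 on the NASH diet (9.65%), 17 for NASH against chow in WT (5.93%) and 6 in KO (3.29%). These differences are the parts of the interaction, and choosing genes by it favours calls in them. Nothing is read from these counts either. A sex term left 4 called genes (0.0277%), namely Aqp4, Tppp and a keratin pseudogene above 0 (0.0208%) and Fmn1 below 0 (0.00693%). At an unadjusted p under 0.05, 1191 genes (8.25%; 4.24% above 0 and 4.01% below) passed without the sex term and 1027 (7.11%; 3.91% above and 3.2% below) with it. Groups of 5 did not overlap between the genotypes for 4.91% of tested genes on chow and 14.1% on the NASH diet, and between the diets for 6.15% in WT and 8.5% in KO.

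**Figure D1:**
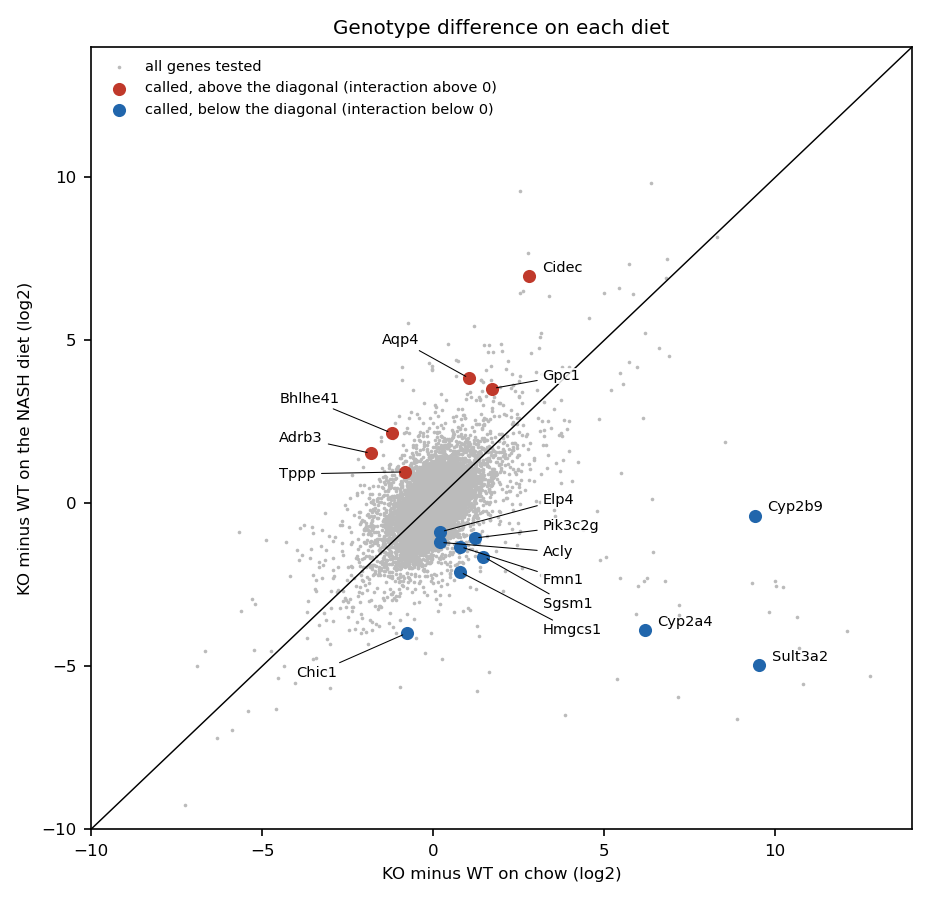
Knockout minus wild-type difference on chow (x axis, log2) against that on the NASH diet (y axis, log2) for 14440 genes in grey. The vertical distance from the diagonal is the interaction, and the 16 called genes described in the text are coloured, Cidec highest above the diagonal and the female-predominant enzymes Cyp2b9, Cyp2a4 and Sult3a2 far below it.

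Fmn1 (chr2:113327736-113716767 in GRCm38, plus strand) showed a NASH-diet rise that was large in WT and small in KO. In WT chow its level was 2.43, 2.76, 1.79, 1.9 and 2.22 CPM, and in WT NASH it was 18.7, 12.9, 17.7, 20.3 and 13.4 CPM. In KO chow it was 3.61, 4.62, 4.65, 2.54 and 3.77 CPM, and in KO NASH 6.74, 8.21, 6.77, 4.36 and 6.8 CPM. Every WT NASH library stood above every other library, while KO chow and KO NASH overlapped. The NASH mean was 7.48 times the chow mean in WT and 1.71 times in KO. The interaction was -2.12 (SE 0.302, adjusted p = 0.00499), and -2.02 with sex as a term (adjusted p = 0.0497). The single male of WT NASH, at 20.3 CPM, had the highest Fmn1 level of all libraries, and among males alone the interaction was -2.39. Among the 12 tested actin and formin genes, Fmn1 was the only one at an unadjusted p under 0.05, and the median over the list was 0.01 against -0.03 over all genes.

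Aqp4, on chromosome 18, fell on the NASH diet in both genotypes, and by far more in WT than in KO. WT chow libraries held 12.9, 8.5, 12.6, 8.83 and 9.56 CPM, and WT NASH libraries held 1.23, 0.771, 0.484, 0.441 and 0.646 CPM. KO chow libraries held 15.7, 18.4, 27.9, 22.3 and 24.9 CPM, and KO NASH libraries held 10.5, 10.4, 5.22, 16.6 and 10 CPM. The genotypes did not overlap on either diet, and the KO mean was 2.08 times the WT mean on chow and 14.8 times on the NASH diet. The interaction was 2.78 (SE 0.406, adjusted p = 0.00499), 3.19 with sex as a term (adjusted p = 0.0261) and 3.74 among males alone. Of the 10 tested genes for aquaporins and glycerol handling, only Aqp4 and Gpd2, the mitochondrial glycerol-3-phosphate dehydrogenase (-1.56, adjusted p = 0.148), passed an unadjusted p of 0.05.

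Cidec (chr6:113424634-113435760 in GRCm38, minus strand) encodes a protein that enlarges lipid droplets by fusing them. In WT chow it was at 20.3, 11.5, 67.2, 70.6 and 41.6 CPM, and in WT NASH at 0.904, 0.534, 0.787, 0.588 and 1.61 CPM. In KO chow it was at 370, 442, 99.9, 211 and 352 CPM, and in KO NASH at 121, 77.6, 146, 104 and 124 CPM. The lowest KO library on each diet exceeded the highest WT library, and in WT the diets were separated as well. The KO to WT ratio of means was 6.99 on chow and 129 on the NASH diet. Its interaction was 4.17 (SE 0.658, adjusted p = 0.0111). The sex term gave 3.70 (adjusted p = 0.178), and males alone gave 4.69. Males alone rest on 1 WT NASH library. In that fit Pik3c2g (-1.52), Hmgcs1 (-2.08), Acly (-0.95), Elp4 (-0.59), Chic1 (-1.03) and Bhlhe41 (3.04) were nearer to 0 than with both sexes. Sgsm1 (-3.16), Tppp (2.5), Adrb3 (3.94) and Gpc1 (2.17) were further from 0. Fmn1, Aqp4 and Cidec were called in each of the 20 fits that left out 1 library, with adjusted p up to 0.019, 0.021 and 0.0438, in that order.

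The lipid droplet list as a whole had members on both sides of 0. Of its 13 tested members, Cidec included, 5 were above 0 and 1 below 0 at an unadjusted p under 0.05. The shares over all genes were 4.24% above and 4.01% below 0. The list median was 0.32 (0.41 with sex as a term), against -0.03 over all genes. Fitm1, which partitions triglyceride into droplets, averaged 21.5 ± 14.1 CPM in WT chow against 5.17 ± 3.25 in WT NASH, and 25.5 ± 17.4 in KO chow against 36.6 ± 19.5 in KO NASH (interaction 2.61, SE 0.757, adjusted p = 0.194). G0s2, an inhibitor of the lipase ATGL, was at 2.03 (SE 0.865), Plin4, a droplet coat protein, at 1.29 (SE 0.615), and Hsd17b11 at 0.97 (SE 0.451). Pnpla3, a droplet lipase and transacylase regulated by SREBP-1c, was at -2.99 (SE 1.06) and at -1.48 with sex as a term. Plin2, the main droplet coat of hepatocytes, was at 0.09 (SE 0.559). Apart from Cidec and Fitm1, these genes were named from the list after their values were seen. Cidea and Plin1 had too few counts to be tested.

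**Figure D2:**
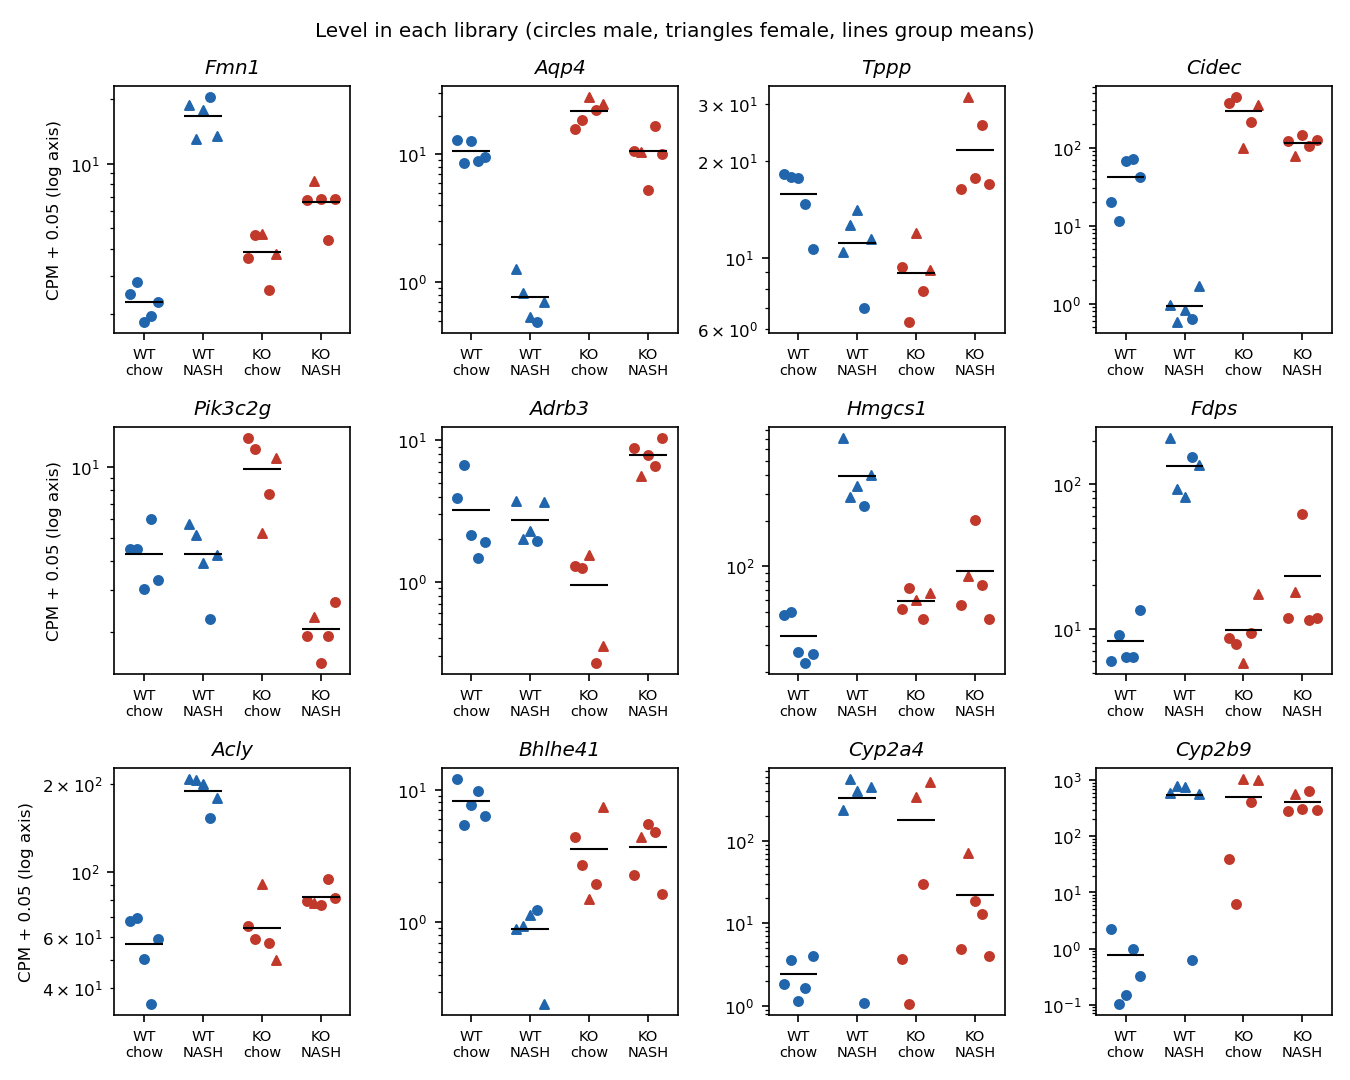
Level of 12 genes in each library, as CPM plus 0.05 on a log axis, with WT in blue, KO in red, males as circles, females as triangles and group means as lines. For Fmn1, Hmgcs1, Fdps and Acly the 5 WT NASH libraries stand above the rest, with the male at 20.3 CPM for Fmn1, while for Cyp2a4 and Cyp2b9 the WT NASH male stands with WT chow.

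Tppp, Adrb3 and Pik3c2g had a diet difference in KO and none that passed the test in WT. Tppp was at 18.1, 17.8, 17.7, 14.6 and 10.6 CPM in WT chow against 10.4, 12.6, 14, 6.91 and 11.4 in WT NASH, and at 9.31, 6.27, 11.9, 7.84 and 9.11 in KO chow against 16.3, 31.5, 17.6, 25.9 and 16.9 in KO NASH. Every KO NASH library stood above every KO chow library, whereas the diets overlapped in WT. The interaction was 1.79 (SE 0.333, adjusted p = 0.0348), and 2.42 with sex as a term (adjusted p = 0.00716). The call held in 10 of the 20 fits without 1 library, those without WT chow 4 or 5, WT NASH 4, KO chow 1 to 4, or KO NASH 2, 3 or 5, and was lost in the rest at adjusted p up to 0.0895.

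Adrb3 was at 3.85, 6.66, 2.09, 1.42 and 1.87 CPM in WT chow and at 3.68, 1.96, 2.24, 1.91 and 3.62 in WT NASH. It was at 1.25, 1.21, 1.49, 0.218 and 0.304 CPM in KO chow and at 8.78, 5.56, 7.82, 6.52 and 10.3 in KO NASH. All KO NASH libraries stood above all KO chow and WT NASH libraries. Adrb3 is known from adipose tissue, and the summed level of 6 adipose markers was 3.59 to 54.8 CPM in KO NASH, 0.297 to 5.15 in KO chow, 0.517 to 0.969 in WT NASH and 0 to 1.32 in WT chow, with 1, 1, 2 and 4 of the 6 at 0 counts. The part of adipose tissue in the Adrb3 values was not tested. The NASH mean was 8.74 times the chow mean in KO and 0.843 times in WT, and the interaction was 3.33 (SE 0.638, adjusted p = 0.0392). The sex term gave 3.27 (adjusted p = 0.288). The call held without WT chow 4, WT NASH 4, KO chow 1, 2 or 4, or KO NASH 2, and was lost without any other library at adjusted p up to 0.0936.

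Pik3c2g (chr6:139587221-139969284 in GRCm38, plus strand) is a lipid kinase of hepatocyte endosomes that sustains AKT2 signalling after insulin. It was at 4.44, 4.44, 2.99, 5.98 and 3.26 CPM in WT chow and at 5.68, 5.1, 3.87, 2.21 and 4.2 in WT NASH. It was at 13.2, 11.9, 5.2, 7.62 and 10.9 CPM in KO chow and at 1.88, 2.27, 1.43, 1.87 and 2.63 in KO NASH. The KO diets did not overlap, and the KO group was the highest of the 4 groups by mean on chow and the lowest on the NASH diet. The interaction was -2.28 (SE 0.402, adjusted p = 0.0315), and -2.18 with sex as a term (adjusted p = 0.178). The call held without WT chow 1 or 4, WT NASH 4, any KO chow library, or KO NASH 2, 3 or 5, and was lost without the others at adjusted p up to 0.0717. Pik3c2g was the only 1 of 22 tested PI3K and AKT signalling genes at an unadjusted p under 0.05. The median of that list was -0.17, and the class I catalytic genes Pik3ca, Pik3cb and Pik3cd were at -0.21, -0.10 and -0.54 (SE 0.223, 0.375 and 0.545; named after their values were seen).

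Cholesterol synthesis was the metabolic list with the most members below 0. It was higher on the NASH diet than on chow in WT, with a median of 2.54 over its 20 tested members, and stood nearer to its chow level in KO, with a median of 0.66. Between the genotypes the list median was 0.15 on chow and -1.45 on the NASH diet. The interaction was below 0 for 20 of 20 members, with a median of -1.66 against -0.03 over all genes. At an unadjusted p under 0.05, 15 members were below 0 (75%, against 4.01% of all genes) and 0 above 0. Under the sex term the median was -1.22, 18 members were below 0 and 8 passed an unadjusted p of 0.05. Among males alone, where WT NASH is a single library, the median was -0.93 and 15 members were below 0.

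Sterol depletion is known to act on such genes through the sterol regulatory element read by SREBP2 and the CCAAT box of its partner NF-Y. The promoters of Hmgcs1 and Mvk are shown as the list member with a match to both and one with CCAAT matches alone. The 250 bases before the RefSeq start were searched on both strands for TCACNCCAC and CCAAT, which do not overlap in Hmgcs1. Of the 20 members, 13 had an entry in the RefSeq promoter table (GRCm38.p6). All 13 held CCAAT, against 37.5% of the promoters of 27025 genes, and 1 held TCACNCCAC, against 1.22%. Hmgcs1 (chr13:119690101-119690350, plus strand) had 1 sterol element and 3 CCAAT boxes, and Mvk (chr5:114444019-114444268, plus strand) had 5 CCAAT boxes and no TCACNCCAC. A match is a description of the letters, not a shown binding site, and capitals mark the matches.
Hmgcs1: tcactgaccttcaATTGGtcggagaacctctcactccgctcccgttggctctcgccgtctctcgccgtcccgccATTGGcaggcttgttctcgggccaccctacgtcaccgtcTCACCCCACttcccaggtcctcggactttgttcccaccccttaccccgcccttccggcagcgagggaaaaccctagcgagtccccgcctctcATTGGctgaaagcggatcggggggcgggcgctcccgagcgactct
Mvk: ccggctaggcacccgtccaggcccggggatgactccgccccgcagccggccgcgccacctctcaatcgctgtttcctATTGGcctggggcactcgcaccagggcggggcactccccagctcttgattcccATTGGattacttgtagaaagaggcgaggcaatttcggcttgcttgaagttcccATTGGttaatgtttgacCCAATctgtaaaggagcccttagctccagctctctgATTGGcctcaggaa

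Hmgcs1, the synthase that makes HMG-CoA at the entry of the mevalonate pathway, was the list member called over all genes. It was at 47.3, 49.5, 27.2, 22.9 and 26.1 CPM in WT chow and at 705, 288, 340, 249 and 405 in WT NASH. It was at 51.9, 71.4, 60, 44.9 and 66 CPM in KO chow and at 55, 85.6, 202, 74.7 and 45 in KO NASH. WT NASH stood above all other libraries, and the highest KO NASH value, in replicate 3, fell short of the lowest WT NASH value. The NASH to chow ratio of means was 11.5 in WT and 1.57 in KO. The interaction was -2.87 (SE 0.525, adjusted p = 0.0348), and -2.59 with sex as a term (adjusted p = 0.283). The call held without WT chow 1 or 4, WT NASH 4, KO chow 1, 2 or 4, or KO NASH 2 or 3, and was lost without any other library at adjusted p up to 0.0871.

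Fdps, which condenses isoprenoids to farnesyl diphosphate, had the same order of groups. Its values were 5.92, 9.1, 6.37, 6.36 and 13.4 CPM in WT chow against 208, 92.1, 81.8, 154 and 136 in WT NASH, and 8.66, 7.84, 5.79, 9.29 and 17.3 in KO chow against 11.9, 18.1, 61.8, 11.5 and 11.8 in KO NASH. WT NASH did not overlap with KO NASH, and the male WT NASH library, at 154 CPM, lay within its group. The interaction was -2.79 (SE 0.626, adjusted p = 0.09), and it passed without WT NASH 4 (adjusted p = 0.0466) and without KO NASH 3 (-3.58, adjusted p = 0.00123). The most negative member was Idi1, the isopentenyl diphosphate isomerase, at -4.34 (SE 1.21). Sqle, the squalene epoxidase, was at -2.88 (SE 1.05) and Cyp51, which removes a methyl group from lanosterol, at -2.76 (SE 0.686). The transcription factor gene Srebf2 was at -1.09 (SE 0.466) and its retention protein Insig1 at -0.83 (SE 0.517). Under the sex term Sqle was at -1.61, Srebf2 at -0.67 and Cyp51 at -3.16. Idi1, Sqle, Cyp51, Srebf2 and Insig1 were chosen after their values were seen.

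Dhcr7, which makes cholesterol from 7-dehydrocholesterol, averaged 9.37 ± 6.53 CPM in WT chow against 72.9 ± 22.6 in WT NASH, and 24.4 ± 13.2 in KO chow against 37.4 ± 17.3 in KO NASH. Its interaction was -2.33 (adjusted p = 0.144). With sex and a length slope as terms, the slope being each library's dependence of log2 CPM on exonic gene length, it was -2.76 (SE 0.437, adjusted p = 0.00931). One KO NASH library stood apart for the whole pathway. The mean log2(CPM + 0.5) over the 20 members was 6 in KO NASH 3 and 4.27 to 4.74 in the other KO NASH libraries, against 6.11 to 6.89 in WT NASH. KO chow 5, at 4.82, stood above the other KO chow libraries, at 3.75 to 4.04, and WT chow lay between 3.72 and 4.08. Without KO NASH 3 the list median was -2.24, and without KO chow 5 it was -1.20.

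**Figure D3:**
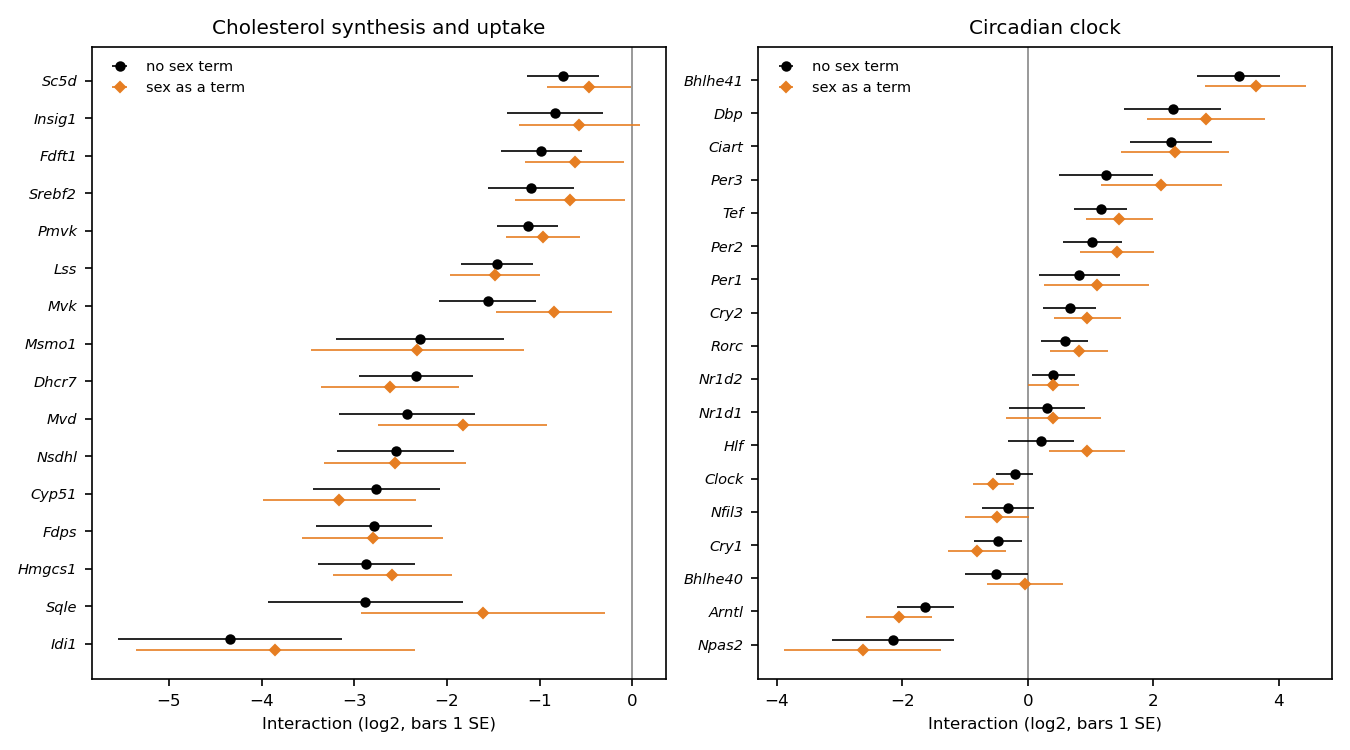
Interaction (log2, bars 1 SE) of 16 of the 20 tested cholesterol genes and the 18 tested clock genes, without (black circles) and with (orange diamonds) sex as a term. The 16 black circles on the left all lie below 0, from Idi1 at -4.34 to Sc5d at -0.75, while the clock genes run from Npas2 at -2.15 to Bhlhe41 at 3.36.

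Fatty acid synthesis also lay mostly below 0. Of 15 tested genes of de novo lipogenesis, 7 were below 0 and 0 above 0 at an unadjusted p under 0.05, with a median of -1.35 (-0.78 with sex as a term). The shares over all genes were 4.01% below and 4.24% above 0. With sex as a term 5 were below 0 and 1 above 0 at an unadjusted p under 0.05 (40%, against 7.11% of all genes). Among males alone, where WT NASH is 1 library, the median was -0.47. Acly, which makes cytosolic acetyl-CoA from citrate, was at 67.9, 69.3, 50.2, 35.3 and 59 CPM in WT chow against 207, 206, 200, 152 and 178 in WT NASH, and at 65.2, 58.6, 90.7, 56.9 and 49.9 in KO chow against 79.5, 78.1, 77.1, 94 and 81 in KO NASH. All WT NASH libraries, the male included, stood above all others, and KO chow and KO NASH overlapped. Its interaction was -1.39 (SE 0.276, adjusted p = 0.0451), and -1.20 with sex as a term (adjusted p = 0.328). The call held without WT chow 4, WT NASH 4, KO chow 4 or 5, or KO NASH 2, and was lost without any other library at adjusted p up to 0.106.

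Elovl6, the elongase of palmitate, differed in the other arm. It averaged 56.9 ± 11.2 CPM in WT chow against 50.2 ± 14.3 in WT NASH, and 88 ± 39.5 in KO chow against 20.5 ± 7.03 in KO NASH, so that the mean fell on the NASH diet in KO (log2 difference -2.10, adjusted p = 0.00191) and the WT diets overlapped. Its interaction of -1.92 (SE 0.41, adjusted p = 0.0747) was not called. Fasn, the fatty acid synthase, was at -2.73 (SE 0.665), Acaca and Acacb, the acetyl-CoA carboxylases, at -1.55 and -2.03 (SE 0.5 and 0.607), and Srebf1 at -1.56 (SE 0.416). Under the sex term Srebf1 was at -0.91 and Pklr, the liver pyruvate kinase, moved from -1.35 to 0.04. Scd1, the stearoyl-CoA desaturase, was at -1.06 (SE 0.958). The mean log2(CPM + 0.5) over this list was 7.09 to 7.46 in the WT NASH females and 6.26 in the WT NASH male, which lay within the range of WT chow, 5.64 to 6.51. Fasn, Acaca, Acacb, Srebf1, Pklr and Scd1 were chosen after their values were seen.

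The clock list had members on both sides of 0. Of 18 tested members, 5 were above 0 and 2 below 0 at an unadjusted p under 0.05 (38.9%, against 8.25% of all genes), with a median of 0.50. Under the sex term 6 were above and 2 below 0, with a median of 0.88. The median was below 0, at -0.16, in a fit with limma voom and quality weights. The promoter of Bhlhe41 (chr6:145865421-145865670, minus strand, GRCm38.p6) is shown for its single E-box CACGTG, the element that CLOCK and ARNTL bind and that BHLHE41 competes for. CACGTG was found in 5 of the 15 clock genes with an entry (33.3%) and in 6.86% of all genes.
Bhlhe41: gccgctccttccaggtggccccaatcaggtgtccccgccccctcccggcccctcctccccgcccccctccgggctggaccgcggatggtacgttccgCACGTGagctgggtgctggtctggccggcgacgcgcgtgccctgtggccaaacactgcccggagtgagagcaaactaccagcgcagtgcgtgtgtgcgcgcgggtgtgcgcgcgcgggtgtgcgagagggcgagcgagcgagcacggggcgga

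Bhlhe41 fell on the NASH diet in WT, while its diet difference in KO did not pass the test (log2 difference 0.06, adjusted p = 0.948). It was at 11.9, 5.36, 7.66, 9.69 and 6.24 CPM in WT chow and at 0.839, 0.89, 1.09, 1.18 and 0.194 in WT NASH. It was at 4.31, 2.65, 1.44, 1.89 and 7.35 CPM in KO chow and at 2.22, 4.36, 5.46, 4.74 and 1.59 in KO NASH. WT NASH stood below every other library, and the KO diets overlapped. The interaction was 3.36 (SE 0.656, adjusted p = 0.0423), and 3.63 with sex as a term (adjusted p = 0.178). The call held without WT NASH 4, KO chow 5, or KO NASH 2 or 5, and was lost without any other library at adjusted p up to 0.0936.

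Arntl (Bmal1), the partner of CLOCK, lay in the opposite direction. It was at 4.8, 3.79, 1.99, 2.37 and 1.59 CPM in WT chow against 28.1, 14.4, 12.8, 26.8 and 16.3 in WT NASH, and at 2.83, 4.02, 3.91, 4.14 and 2.07 in KO chow against 8.36, 5.56, 5.46, 5.7 and 11.5 in KO NASH. The diets did not overlap in either genotype, and the NASH to chow ratio of means was 6.76 in WT and 2.16 in KO. The interaction was -1.63 (SE 0.454, adjusted p = 0.171), and -2.22 with sex and length slope as terms (adjusted p = 0.035). Npas2, a CLOCK paralogue, was at -2.15 (SE 0.971). Dbp, a transcription factor of clock output, was at 2.31 (SE 0.776), Ciart at 2.28 (SE 0.652), Tef at 1.16 (SE 0.423) and Per2 at 1.03 (SE 0.475). Nr1d1, another target of CLOCK and ARNTL, was at 0.30 (SE 0.606) and Clock at -0.21 (SE 0.29). Over the whole list 12 members were above 0 and 6 below. These 7 genes were chosen after their values were seen, and the part of the hour of collection in them was not tested.

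Cyp2b9, Cyp2a4 and Sult3a2 were among the most negative fitted interactions of the called genes. Females stood above males for Cyp2a4 and Sult3a2 in each group that held both, but for Cyp2b9 the KO NASH males overlapped with the female. Of 22 genes of a list of female-biased liver genes, 17 were below 0 and 0 above 0 at an unadjusted p under 0.05 (77.3%, against 8.25% of all genes), with a median of -8.25. At the same p under the sex term, 3 members were below 0 and 1 above 0, with a median of -0.90. Among males alone the median was 1.27. Genes at or near 0 counts in WT chow have fitted values that depend on the prior count, so these medians are not folds. Of 18 tested male-biased genes, 4 were above 0 and 0 below 0 at an unadjusted p under 0.05 (22.2%), with a median of 1.60. With sex as a term 4 were above and 3 below 0 at that p (38.9%, against 7.11% of all genes), and the median was -0.37. Cyp2b9, Cyp2a4 and Sult3a2 are members of families of similar genes, so their counts are uncertain where reads could be split.

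Cyp2a4, a testosterone 15-alpha-hydroxylase, was at 1.78, 3.57, 1.09, 1.61 and 4.02 CPM in the WT chow males. In WT NASH the females had 235, 556, 400 and 452 CPM and the male 1.03. The KO chow females had 342 and 513 CPM and the males 3.61, 1.01 and 29.6, and in KO NASH the female had 70.4 CPM and the males 4.86, 18.7, 12.8 and 3.99. The interaction was -10.07 (SE 2.01, adjusted p = 0.0451), -2.3 with sex as a term (adjusted p = 0.8) and 1.10 among males alone. Sult3a2, a sulfotransferase, was at 6.78 to 13.6 CPM in the WT NASH females, 15.3 and 65.1 in the KO chow females and 1.33 in the KO NASH female, and at most 0.095 CPM in any male. With sex as a term the adjusted p of Sult3a2 was 0.61. Cyp2a4 and Sult3a2 were called without WT NASH 4, KO chow 1, 2 or 4, or KO NASH 2. Without any other library adjusted p reached 0.131 for Cyp2a4 and 0.122 for Sult3a2.

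Cyp2b9, a steroid-metabolising P450 inducible by xenobiotics, was high in males as well as females in KO NASH. It was at 2.19, 0.0542, 0.0995, 0.95 and 0.277 CPM in the WT chow males and at 581, 796, 758, 0.588 and 562 in WT NASH, where the low value is that of the male. It was at 39.7, 6.31, 1040, 408 and 1010 CPM in KO chow, with the females at the 2 highest values, and at 281, 574, 303, 629 and 290 in KO NASH, where the male replicate 4 exceeded the female. All 6 WT males were under 2.2 CPM and all 7 KO males above 6. The interaction was -9.79 (SE 1.82, adjusted p = 0.0348), -5.36 with sex as a term (adjusted p = 0.607) and 1.66 among males alone. Its call held without WT chow 1, WT NASH 4, KO chow 1, 2 or 4, or KO NASH 2, and was lost without any other library at adjusted p up to 0.0895.

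**Figure D4:**
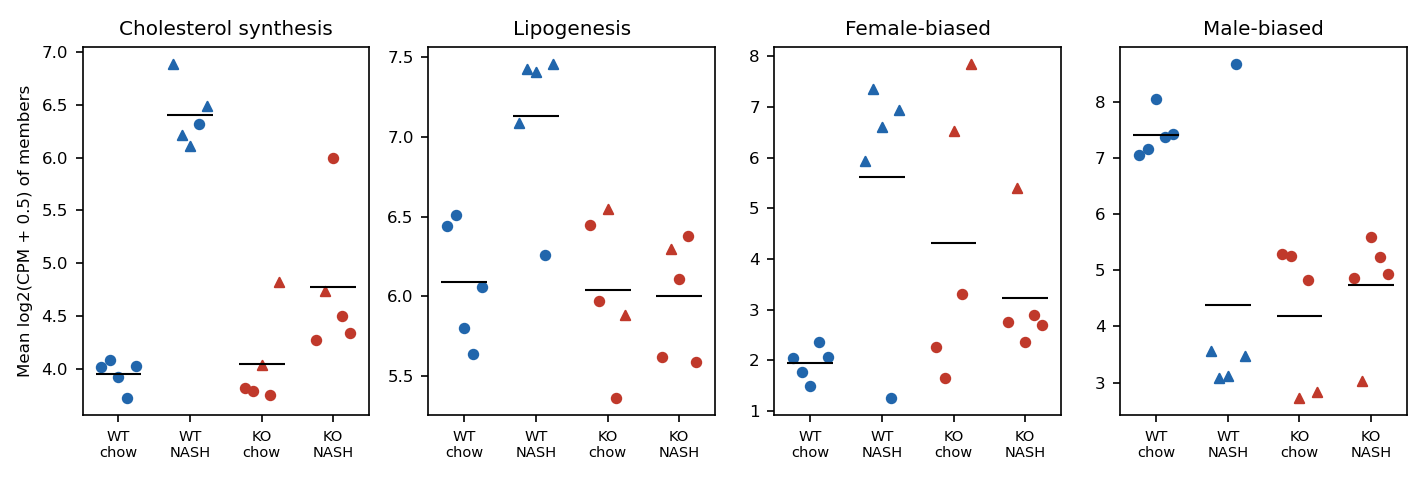
Mean log2(CPM + 0.5) over the members of 4 gene lists in each library, with WT in blue, KO in red, males as circles, females as triangles and group means as lines. For cholesterol synthesis the WT NASH male, at 6.32, lies with the WT NASH females, while for the female-biased list it lies with the males, at 1.25, and for the male-biased list at 8.68.

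Among the other called genes, Gpc1 was at 16.3, 15.8, 17.1, 8.64 and 7.69 CPM in WT chow, at 7.17, 6.47, 4.42, 3.83 and 4.58 in WT NASH, and at 45.7, 64.4, 28.5, 40.3 and 38.1 in KO chow against 64.3, 47.7, 67.3, 63.9 and 63.5 in KO NASH. KO stood above WT in every library on both diets, and the ratio of means was 3.31 on chow and 11.6 on the NASH diet. Its interaction was 1.80 (SE 0.357, adjusted p = 0.0451), and 1.5 with sex as a term (adjusted p = 0.346). The call of Gpc1 held without WT chow 4 or 5, WT NASH 4, KO chow 2 or KO NASH 2, and adjusted p reached 0.122 without the others. Sgsm1, a small G protein signalling modulator, was at 0.0995 to 0.57 CPM in WT chow against 3.21 to 5.42 in WT NASH, and 0.304 to 1.09 in KO chow against 0.745 to 1.71 in KO NASH, so that WT NASH stood above the rest. Its interaction was -3.12 (SE 0.564, adjusted p = 0.0315), and -2.99 with sex as a term (adjusted p = 0.178). Sgsm1 was called without WT chow 4, WT NASH 4, KO chow 1, 2, 4 or 5, or KO NASH 2 or 3, with adjusted p up to 0.0782 without the others.

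Elp4, a subunit of the Elongator complex, which modifies transfer RNA, was at 9.15 to 11.4 CPM in WT chow against 13.7 to 22.2 in WT NASH, and 9.73 to 13.1 in KO chow against 9.37 to 11.6 in KO NASH. Chic1, which encodes a palmitoylated protein, was at 1.18 to 3.73 CPM in WT chow against 5.88 to 17.7 in WT NASH, and 0.363 to 2.97 in KO chow against 0.64 to 1.27 in KO NASH. In both genes WT NASH stood above the other groups, with its male lowest, at 13.7 CPM for Elp4 and 5.88 CPM for Chic1. The interactions were -1.09 (SE 0.209, adjusted p = 0.0392) and -3.20 (SE 0.621, adjusted p = 0.0423), and -0.81 and -1.72 with sex as a term (adjusted p = 0.345 and 0.562). Both calls held without WT NASH 4, KO chow 1, 2 or 4, or KO NASH 2, and that of Elp4 also without WT chow 4. Without any other library adjusted p reached 0.0936 for each.

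With sex and length slope as terms 72 genes were called (0.499%), 35 above 0 (0.242%) and 37 below 0 (0.256%), of which 11 were among the 20. At an unadjusted p under 0.05, 15.6% of genes passed in that fit, 7.8% above 0 and 7.84% below. The called genes of that fit also included Epha1, an ephrin receptor kinase, at 1.42 (SE 0.233, adjusted p = 0.0121), Samd1, which binds unmethylated CpG islands, at 2.26 (SE 0.376, adjusted p = 0.0121), and Marveld1 at 1.84 (SE 0.314, adjusted p = 0.0145). Without these terms the 3 interactions were 0.97, 1.47 and 1.35 (adjusted p = 0.137, 0.157 and 0.137). Epha1 averaged 39.8 ± 5.5 CPM in WT chow against 24.5 ± 5.8 in WT NASH, and 26.1 ± 3.38 in KO chow against 31.5 ± 4.3 in KO NASH. Samd1 averaged 11.2 ± 3.36, 6.27 ± 1.81, 4.48 ± 2.15 and 7.01 ± 1.15 CPM, and Marveld1 28.8 ± 7.33, 16 ± 4.73, 23.8 ± 7.81 and 33.9 ± 6.11 CPM, in the same order of groups. In all 3 genes the mean was lower on the NASH diet in WT and higher on it in KO.

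Inflammation and fibrosis lists had shares past an unadjusted p of 0.05 of 14.3% and 10%, not far from the 8.25% of all genes, so no direction is read from either. All 14 tested inflammation genes were below 0, with a median of -1.28 (-0.85 with sex as a term, 11 below 0), and 2 passed (0 with sex as a term), the chemokines Ccl2 (-3.29, SE 1.57) and Ccl4 (-2.98, SE 1.17). The median was -0.38 without KO chow 5, in which Ccl2 was at 31.2 CPM against at most 1.73 in the other KO chow libraries. Of 11 macrophage and Kupffer cell markers 9 were below 0, with a median of -0.96. At an unadjusted p under 0.05, 3 passed below 0 and 1 above 0 (36.4%). With sex as a term 9 were below 0 and 1 passed (9.09%, against 7.11% of all genes), with a median of -0.57. Their summed level was 290 to 1010 CPM in WT chow against 445 to 844 in WT NASH, and 448 to 1170 in KO chow against 321 to 446 in KO NASH, none of the 11 being at 0 in any group. Gpnmb, a marker of lipid-laden macrophages that was named after its value was seen, was at 2.52 (SE 1) and at 1.17 with sex as a term. The part of these cells in the inflammation values was not tested. In whole liver, fewer cells of a type and less RNA per cell cannot be told apart.

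For fibrosis and matrix genes the median was 0.77, with 17 of 20 above 0 and 2 past an unadjusted p of 0.05, and 0.42 with sex as a term, when 0 passed. Acta2, the smooth muscle actin of activated stellate cells, was at 1.66 (SE 0.74) and Timp2, an inhibitor of matrix metalloproteinases, at 0.80 (SE 0.358). Col1a1, a chain of type I collagen, was at 1.5 (SE 0.737; named after its value was seen). Among PDGF ligands and receptors, 5 of 6 were above 0 (median 0.61), and Pdgfa, a growth factor for stellate cells, was at 5.66 ± 1.36 CPM in WT chow against 2.65 ± 1.35 in WT NASH, and 5.79 ± 1.95 in KO chow against 6.16 ± 1.28 in KO NASH (1.21, SE 0.426, adjusted p = 0.357). Stellate cell markers summed to 144 to 310 CPM in WT chow against 241 to 364 in WT NASH, and 211 to 408 in KO chow against 300 to 424 in KO NASH, with 0 of 9 at 0 in any group, and their median interaction was -0.06. The part of stellate cell number in the fibrosis values was not tested.

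Fatty acid oxidation and ketogenesis genes were above 0 in 20 of 22 cases without any passing an unadjusted p of 0.05, with a median of 0.29 (0.42 with sex as a term). Cyp4a14, a PPAR-alpha target that hydroxylates fatty acids, had the largest value of this list, at 2.08 (SE 0.999, adjusted p = 0.607). It stood at 5 CPM in the WT NASH male, against 535 to 1900 CPM in the females of that group and 5190 to 16300 CPM in the WT chow males. Among males alone, where WT NASH is that single library, Cyp4a14 was at 9.59 and the list median at 1.02. The median of 15 gluconeogenesis and glycolysis genes was 0.14, with 9 above 0, and with sex as a term it was -0.06. Of 17 urea cycle and amino acid genes and of 12 pericentral genes 0 passed, with medians of -0.15 and 0.11 (-0.38 and 0.46 with sex as a term). Of 17 acute phase and metallothionein genes 14 were below 0, with a median of -0.90 (-1.22 with sex as a term), and Hamp2, a hepcidin gene, had the most negative value, -5.36 (SE 1.31, adjusted p = 0.115), which was -3.19 with sex as a term and -1.47 among males alone. Chac1, a glutathione-degrading target of the integrated stress response, was at -2.27 (SE 0.569, adjusted p = 0.127), with means of 1.7, 6.89, 1.65 and 1.38 CPM in WT chow, WT NASH, KO chow and KO NASH, while the median of the 16 stress response genes was -0.04 (-0.42 with sex as a term).

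**Figure D5:**
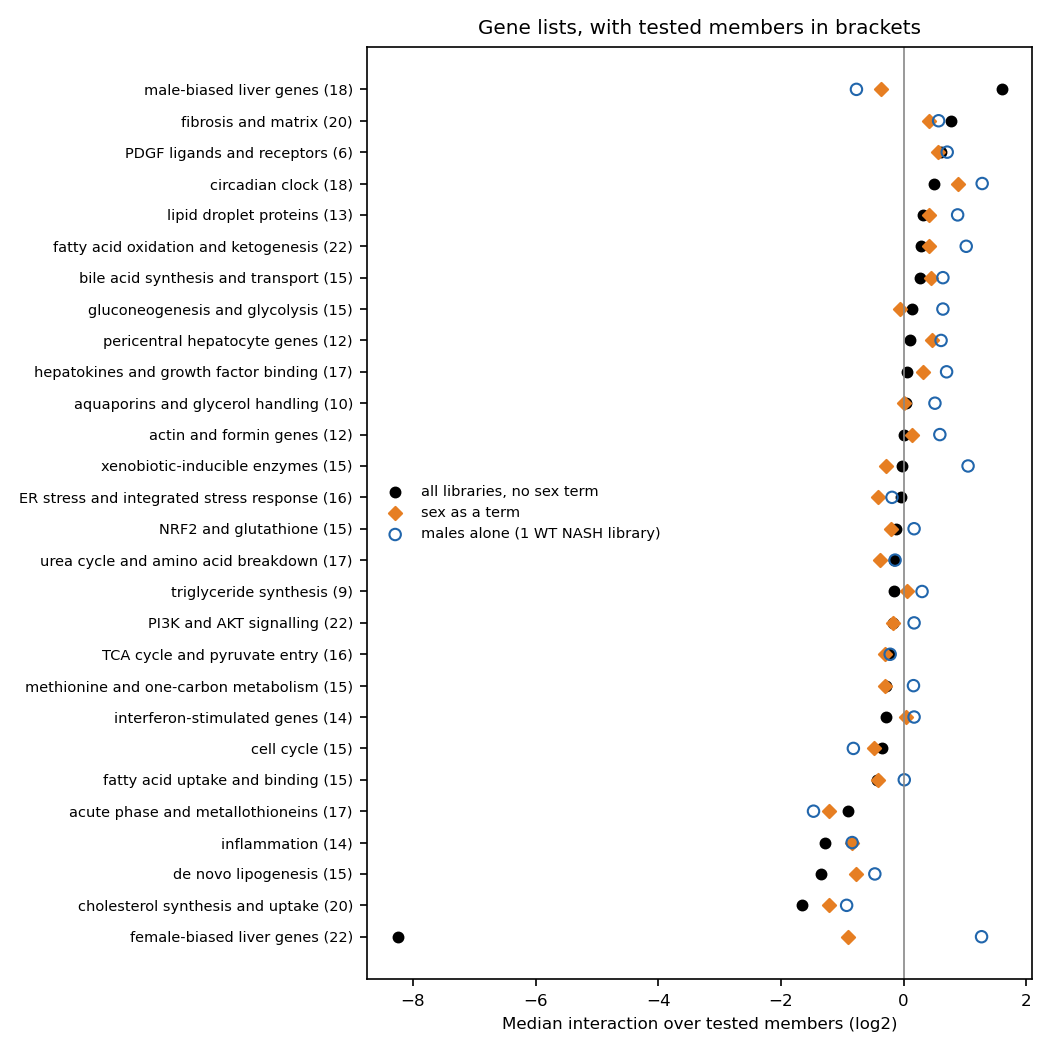
Median interaction (log2) over the tested members of 28 gene lists, from all libraries without a sex term (black), with sex as a term (orange) and among males alone (open blue). The cholesterol list stays below 0 in all 3, at -1.66, -1.22 and -0.93, whereas the female-biased list runs from -8.25 to 1.27.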

How the data were processed

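Liver RNA was sequenced as 20 libraries by the submitters. Reads were aligned with HISAT2 2.0.4 to GRCm38, per the submitters' processing notes. No source used here names the counting program, annotation or strand setting, so overlapping antisense genes cannot be told apart. The authors deposited raw counts per gene symbol, 1 column per library, with no normalization. Whether any library pooled mice is not stated. Columns named HFD were matched to the NASH groups.

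The software was edgeR 4.0.16 in R 4.3.3 (limma 3.58.1 and DESeq2 1.42.0 for alternatives). The filter filterByExpr (minimum count 10) kept 14440 of 26350 symbols with a count, holding 99.91% of all counts. Libraries were scaled with TMM and fitted together, with 1 coefficient per group and the spread estimated from all 20. edgeR's quasi-likelihood F test, two-sided, gave the p of the interaction, and a gene was called where its p, adjusted by Benjamini-Hochberg over all tested genes, was under 0.05. Unadjusted p-values describe lists only. CPM used TMM-scaled totals. Nothing beyond the labels says how the mice were bred or housed, so p-values measure the spread between these samples. The SE printed is the size of the log2 value fitted without a prior count, divided by the square root of F. Printed log2 values include edgeR's prior count, so for genes near 0 counts value and SE come from different estimates. The median SE of the interaction was 0.447. Counts of Ddx3y, Kdm5d, Eif2s3y and Uty of at least 100 in sum marked males. Exonic lengths and gene coordinates came from GENCODE M21 (GRCm38), with a length for 93.33% of tested genes.

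Genes described are Pck1, every called gene, the 10 of smallest p with sex and length slope as terms and a mean of at least 1 CPM, and 2 members per list of smallest p. Predicted genes and pseudogenes were counted only, and some further genes that the rule names are not reported here. The lists and the rule were chosen with earlier results of these data known. Beside 11 marker lists, 29 gene lists were used, of which that of mitochondrially encoded genes could not be tested, since 0 of its 13 symbols matched. On simulated counts over 14170 genes, 58.5% of 200 genes given a 4-fold interaction were called, and 4.1% of calls were false. The closest pair of libraries, KO NASH 1 and 5, differed by more than sampling noise (chi-square per gene 7.98) and counted as 2 samples. The next closest pair, WT chow 1 and 2, was at 21.6, and the other KO NASH pairs were at 45.2 to 83.2. Such a value cannot tell whether 2 libraries came from different mice, as the titles number them. With KO NASH 1 and 5 summed, 4 genes were called.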

Additional observations from a re-analysis of the deposited data

Results flagged for a closer look

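Each of the 16 called interactions described in the report is a difference between the diets in the genotype effect. Below 0 were Acly (-1.39), Chic1 (-3.20), Cyp2a4 (-10.07), Cyp2b9 (-9.79), Elp4 (-1.09), Fmn1 (-2.12), Hmgcs1 (-2.87), Pik3c2g (-2.28), Sgsm1 (-3.12) and Sult3a2 (-14.50). Above 0 were Adrb3 (3.33), Aqp4 (2.78), Bhlhe41 (3.36), Cidec (4.17), Gpc1 (1.80) and Tppp (1.79). The value of Sult3a2 depends on the prior count, because WT chow is at or near 0 counts.

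Of 124 sets of 5 libraries examined for 25 genes and 6 lists, 20 had 1 library whose gap to the nearest other exceeded 0.71 of the range of the set, where chance gives about 1 in 20. The WT NASH male, replicate 4, stood apart for Chic1 (5.88 CPM), Epha1 (14.3 CPM), Fitm1 (10.9 CPM), Elovl6 (25.2 CPM) and the female-biased and male-biased lists (mean log2 level 1.25 and 8.68). It was also the library with the fewest counts (9958935) and the lowest TMM scaling factor (0.683). Its length slope was -0.26, against 0.01 to 0.16 in the other WT NASH libraries. The slope was as low in WT chow 3, 4 and 5 (-0.25, -0.26 and -0.35) and in KO chow 4 and 5 (-0.26 and -0.28). Those WT chow and KO chow libraries had TMM factors of 0.74 to 0.849. In KO NASH every slope was between 0.08 and 0.19, so low slopes were spread unevenly over the groups. The part of sex, depth and slope in the values for which WT NASH 4 stood apart was not tested. The KO NASH female, replicate 2, stood apart for Sult3a2 (1.33 CPM), Cyp2a4 (70.4 CPM), Gpc1 (47.7 CPM) and the same lists (5.39 and 3.03). KO NASH 3 stood apart for Hmgcs1 (202 CPM), Dhcr7 (67.9 CPM), Fdps (61.8 CPM) and the cholesterol list (6). KO chow 5 stood apart for Sult3a2 (65.1 CPM) and the cholesterol list (4.82), WT chow 4 for Sult3a2 (0.095 CPM), WT NASH 1 for Sgsm1 (5.42 CPM) and KO NASH 4 for Acly (94 CPM).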

How the results depend on the processing

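The count of 20 called genes was the same with the other scalings tried (RLE, and TMM without the 20 most abundant genes) and 28 with no low-count filter. It was 12 at a mean of at least 5 CPM, 189 with DESeq2, 1949 with limma voom and quality weights, 4 with sex as a term, 190 with length slope, 72 with both, 5 among males alone (0 of them among the 20), 4 with KO NASH 1 and 5 summed, and 61 at an adjusted p under 0.1 (27 above 0, 34 below). Leaving out 1 library gave 4 to 144 genes. It gave 144 without WT NASH 4 and 51 without KO NASH 2, with all 20 kept in both, and 4 without WT chow 3, WT NASH 2, 3 or 5, or KO NASH 1 or 4. Replicate numbers did not pair the libraries (same-number correlations of deviations from -0.5 to 0.65, 7 of 20 libraries closest to their own number), and a replicate block gave 4 genes, or 2 with sex as a term. Values changed sign among males alone for Cyp2b9 (1.66), Cyp2a4 (1.1), Vldlr (7.86), Cyp7b1 (-0.67), Eno1 (0.41), Cyp3a44 (1.19) and Ccnd1 (0.03), with voom for Lect2 (0.13) and Pdgfb (-1.47), with sex as a term for Glul (0) and with the replicate block and sex for Glul (0.03) and Isg15 (0.1). List medians changed sign too, with voom for the clock list (-0.16), among males alone for female-biased genes (1.27) and with sex as a term for male-biased genes (-0.37), as did those of several lists near 0. The cause of these differences was not tested. The median of all genes moved to 0.17 among males alone, which rest on 1 WT NASH library.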

Other observations

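Cell cycle genes had 3 of 15 members below 0 and 1 above 0 at an unadjusted p under 0.05 (26.7% in all, against 8.25% of all genes), with a median of -0.36. Ccnd1, the cyclin of G1 entry, was at -3.08 (SE 0.777), at -0.48 with sex as a term and at 0.03 among males alone. The interactions of the replication helicase genes Mcm5 and Mcm2 were -2.71 (SE 0.888) and -1.44 (SE 0.608), and that of Ccnb2, a mitotic cyclin, was 2.45 (SE 0.844). With sex as a term these 3 were -3.81, -2.04 and 3.47. In methionine and one-carbon metabolism, Ahcy, which splits S-adenosylhomocysteine, was at -2.08 (SE 0.732) and Bhmt, which remethylates homocysteine, at 1.69 (SE 0.537), with 2 of 15 members past that p in each direction (26.7% in all). With sex as a term they were -2.83 and 1.43, and 2 members passed below 0 and 0 above. Angptl4, an inhibitor of lipoprotein lipase, was at 2.49 (SE 0.944) and Igfbp2, a binding protein of insulin-like growth factors, at 1.77 (SE 0.628). These were the 2 of 17 hepatokine genes that passed (11.8%), and were at 2.88 and 1.39 with sex as a term. Bile acid genes were above 0 in 14 of 15 cases, with a median of 0.26, and 1 passed (6.67%), the sterol 12-alpha-hydroxylase gene Cyp8b1 at 0.94 (SE 0.404). Under the sex term 12 were above 0, and Cyp8b1 was at 0.58. The hepatokine and bile acid shares are near the 8.25% of all genes, so no direction is read from either list. All 9 tested B and T cell markers were below 0, with a median of -0.80, and all 9 sinusoidal endothelium markers above 0, with a median of 0.41. At an unadjusted p under 0.05, 2 B and T cell markers passed (22.2%) and 1 endothelium marker (11.1%), and 0 of either with sex as a term. The B and T cell markers summed to 4.41 to 9.92 CPM in KO NASH and to at most 21.6 CPM in any library. No direction is read from either list. Sex as a term left the B and T cell markers below 0 in 9 of 9 cases (median -0.89) and the endothelium markers above 0 in 6 of 9 (median 0.21). Mcm2 and Ccnb2 were named after their values were seen.

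The mean log2 level over the list of male-biased liver genes was 7.05 to 8.06 in the WT chow males and 8.68 in the WT NASH male, against 4.82 to 5.29 in the KO chow males and 4.87 to 5.59 in the KO NASH males. This was not tested, WT NASH has 1 male, and members differ. Susd4 was at 47.4 to 66.1 CPM in the KO NASH males and 22.4 CPM in the WT NASH male. Female-biased genes were at 1.25 to 2.36 in WT males and 1.66 to 3.3 in KO males.

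Cfd, named after its value was seen, is the serine protease adipsin of adipose tissue. Its interaction was 7.04 (SE 2.27, adjusted p = 0.216), and it was the only tested gene of 6 adipose markers. The summed levels of these markers are given with Adrb3, and the part of adipose tissue in Cfd was not tested.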
